A study of Mus musculus with 8 samples.

Results

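The 10 genes described here, Dppa2, Dppa3, Dppa4, Dppa5a, Khdc3, Ooep, Tcl1, L1td1, Nr0b1 and Aoah, were grouped as genes with strong expression in embryonic stem cells and, for most of them, in the early embryo or germ line. They were found as the probes that carry these gene names on the arrays, which gave 14 probes for 10 genes among 55583 probes and 34736 gene names with a value. All 10 passed the filter on dim probes that left 25892 genes to test. Aoah passed it only through its day 0 groups, where its level was higher, so nothing is read from its calls over the days. The genes were selected on measured values of these arrays, with their levels in the 4 groups known. Their changes over the 6 days are therefore a description that supports nothing. The same holds for counts of the 10 genes that compare the genotypes, on a day or in the change over the days. The comparisons between genotypes are given with p-values adjusted over all genes tested, which does not undo the selection.

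RNA was measured in mouse embryonic stem cell cultures that were wild type or heterozygous for R141C in Nkx2-5 (labelled Nkx25R141C), a homeobox factor of the heart lineage in which this change replaces an arginine with a cysteine. The 4 groups were wild type at day 0, R141C at day 0, wild type at day 6 and R141C at day 6, with 2 biological replicates in each, and the question was how the mutant cells differ before and during differentiation toward cardiac progenitors. Day 0 cells were undifferentiated. Day 6 cells had been withdrawn from LIF, the cytokine that keeps mouse stem cells undifferentiated, and grown as embryoid bodies, in hanging drops of 800 cells for 2 days, in suspension for 3 days and on 0.1% gelatin for the last 24 hours. The labels name no second line or clone of either genotype and do not say how the mutation was made, so a difference between the genotypes cannot be told apart from a difference between lines. Each culture had 1 single-colour Agilent array. The arrays lay on 1 slide, with the days in separate columns and the genotypes in separate rows, so slide position and group cannot be told apart.

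The signal of an array is an intensity, and levels below are its log2 after a shift that puts the 75th percentile of each array at 0. A level of 3 is therefore 3 doublings above that percentile, and levels of different probes are not compared with each other. Between 55.7% and 70.5% of probes were well above background on an array, and replicate arrays rather than read depth limit the precision. All 6 markers of embryonic stem cells (Pou5f1, Sox2, Nanog, Zfp42, Esrrb and Utf1) were well above background on all 8 arrays. Their summed signal, in units of the 75th percentile, was 306 and 411 in wild type and 311 and 213 in R141C at day 0, and 23.2 to 39.1 in the 4 cultures at day 6.

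As background, Dppa2 and Dppa4 are DNA-binding partners with a SAP domain that act together on chromatin, and in mouse embryonic stem cells they are reported to switch on genes of the 2-cell embryo through the factor Dux. Dppa3 (Stella) is a maternal protein that protects the egg's genome from changes in DNA methylation and marks naive stem cells and germ cells. Khdc3 (Filia) and Ooep (Floped) belong to the subcortical maternal complex of the mouse egg, and share the KH type of RNA-binding domain with Dppa5a (Esg1). Tcl1 is a coactivator of the kinase Akt, L1td1 is an RNA-binding protein that arose from a LINE-1 element, and Nr0b1 (Dax1) is an orphan nuclear receptor that works with the core pluripotency factors. Aoah, acyloxyacyl hydrolase, is known from myeloid cells, where it removes fatty acids from bacterial lipopolysaccharide.

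Over the 6 days of differentiation all 10 genes had lower mean levels, in both genotypes, as did 57.1% of all genes in wild type and 51.9% in R141C. The cultures of the 2 days did not overlap for 9 of the 10 genes in wild type and for 10 of 10 in R141C, beside 41.5% and 30.4% of all genes. In wild type, 9 of them were called lower by limma (adjusted p under 0.05 over all genes tested), where 24% of all genes were called in either direction and 12.9% lower. In R141C, 8 of them were called lower, where 15.6% of all genes were called in either direction and 8.03% were called lower. Since the genes were chosen with these falls known, nothing is read from the counts. The exceptions were Dppa3 in both genotypes and Ooep in R141C. The median difference of the 10 genes was -4.41 in wild type and -3.66 in R141C, beside -0.12 and -0.028 for all genes tested. A shift of the arrays to a common median sets the median of all genes near 0 by construction (0.0044 in wild type). The falls in wild type are thus to be read relative to a shift of about the size of the -0.12 above. In bulk RNA, fewer cells of a type and less RNA per cell cannot be told apart, and the summed stem cell markers given above fell over the same days, whose part in these falls was not tested.

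**Figure D1:**
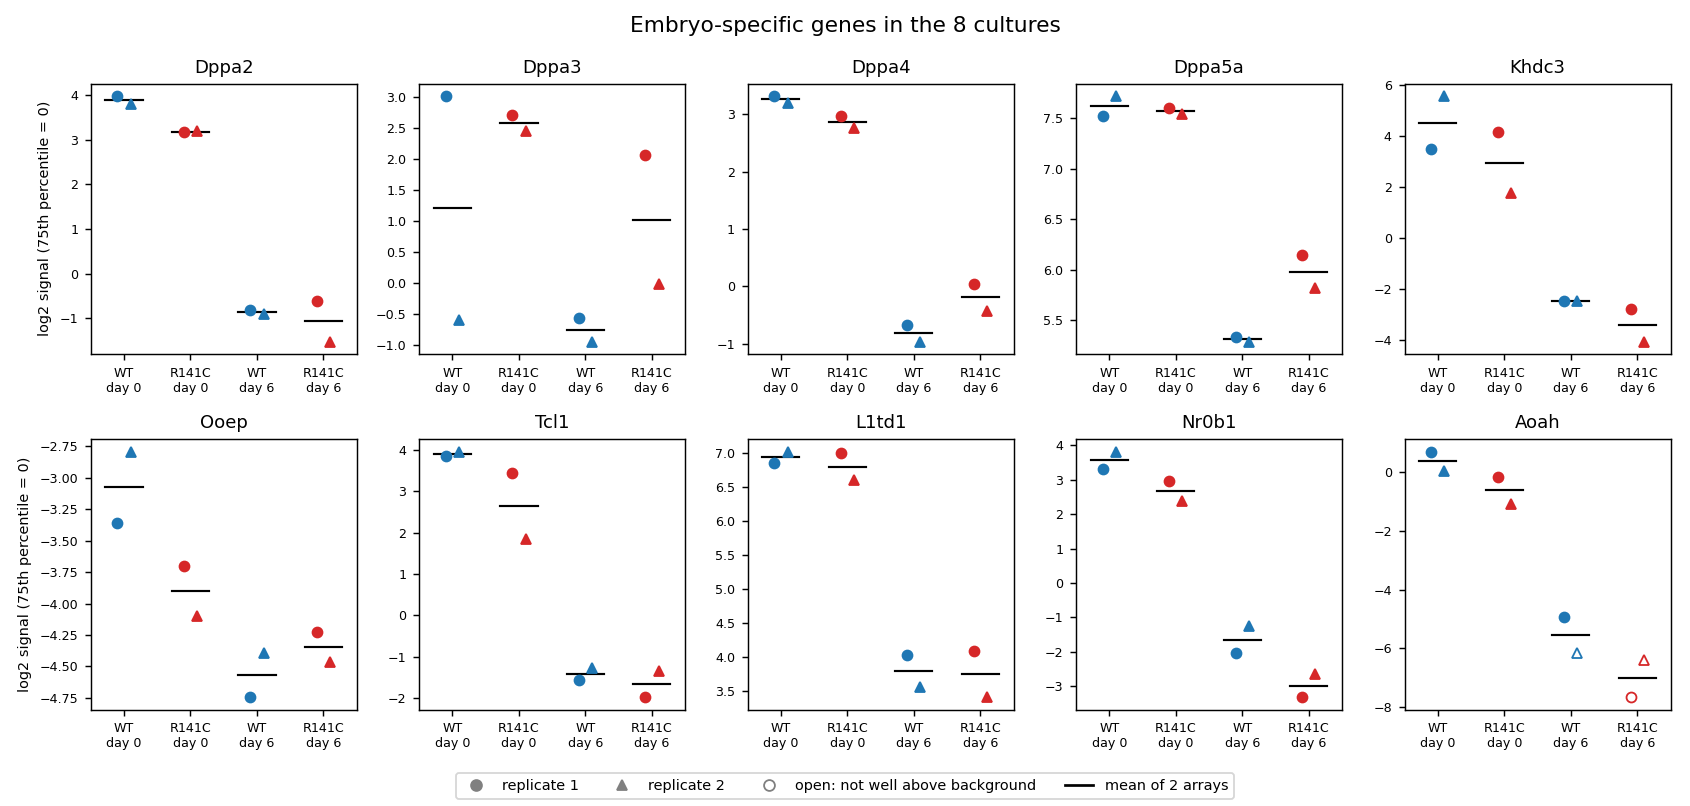
Log2 signal (75th percentile of each array at 0) of the 10 genes in the 8 cultures, with 1 point per array, circles for replicate 1, triangles for replicate 2, open symbols for arrays where the probe was not well above background, and a bar at the mean of 2 arrays. Each panel has its own vertical scale. The 4 day 0 cultures lie above all day 6 cultures for every gene except Dppa3, where wild-type replicate 2 at day 0 (-0.59) lies among the day 6 cultures.

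Dppa2 was read by 2 probes. The brighter one (A_66_P136844, chr16:48319381-48319440 on mm9) gave levels of 3.98 and 3.79 in wild type and 3.18 and 3.19 in R141C at day 0, then -0.82 and -0.90 in wild type and -0.61 and -1.53 in R141C at day 6. At day 0 both R141C cultures were below both wild-type cultures, and at day 6 the genotypes overlapped. The level was 26.9-fold lower at day 6 in wild type and 19.1-fold lower in R141C. The dimmer probe (A_55_P2059730) targets 60 bases that lie across 1209 bp of chromosome 16 and therefore crosses a splice junction, and it is shown because it reads another stretch of the same transcript:

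Dppa2 A_55_P2059730: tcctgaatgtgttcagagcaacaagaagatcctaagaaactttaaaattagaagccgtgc

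It gave 1.49 and 1.41 in wild type and 0.86 and 0.62 in R141C at day 0, then -3.63 and -3.99 in wild type and -2.22 and -4.20 in R141C at day 6. Both probes thus had the same order of the day 0 groups. At day 6 R141C replicate 2 was below replicate 1 on both, with a wider gap on the dimmer probe, and the order of the group means turned between the probes.

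Dppa4, whose probe lies 26165 bp from that of Dppa2, was read by 3 probes. The brightest (A_66_P101192, chr16:48293216-48293867) gave 3.32 and 3.20 in wild type and 2.97 and 2.76 in R141C at day 0, and -0.68 and -0.96 in wild type and 0.05 and -0.43 in R141C at day 6. R141C lay below wild type at day 0 and above it at day 6, without overlap on either day. The fall was 16.9-fold in wild type and 8.33-fold in R141C. A second probe, chr16:48291368-48291427, is printed because it gave the same order on both days from an upstream stretch:

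Dppa4 A_55_P2065549: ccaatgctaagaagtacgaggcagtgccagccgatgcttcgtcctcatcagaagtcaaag

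That probe read 2.77 and 2.53, then 2.45 and 2.20 at day 0, and -1.19 and -1.50, then -0.54 and -0.90 at day 6, with wild type named before R141C. The dimmest probe (A_55_P2158607) read -0.76 and -0.99 in wild type and -1.39 and -1.29 in R141C at day 0, and -3.59 and -3.84 in wild type and -2.95 and -3.42 in R141C at day 6. The order of the groups was the same on all 3 probes.

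**Figure D2:**
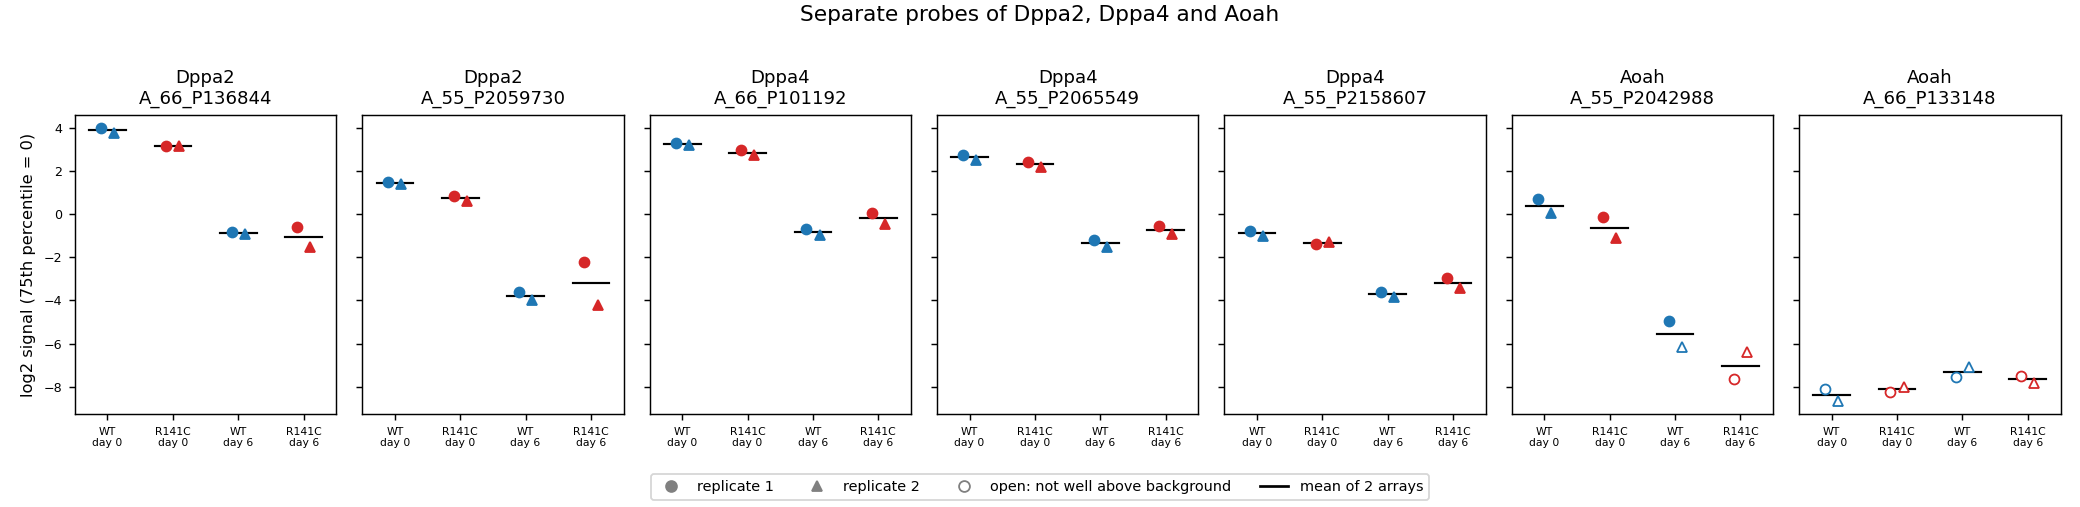
Log2 signal (75th percentile of each array at 0) of the separate probes of Dppa2, Dppa4 and Aoah in the 8 cultures, with symbols as in the plot of the 10 genes, to be compared within a panel and not between panels. The 3 Dppa4 probes and the 2 Dppa2 probes each show the same order of the day 0 groups, while the second Aoah probe is open on all 8 arrays.

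Dppa3 (A_55_P2091496, chr6:122580207-122580266) had the widest gap between replicates in both wild type at day 0 and R141C at day 6. Its levels were 3.02 and -0.59 in wild type and 2.71 and 2.46 in R141C at day 0, and -0.56 and -0.95 in wild type and 2.06 and -0.02 in R141C at day 6. The wild-type day 0 cultures differed 12.3-fold from each other, and the lower of them was level with wild type at day 6. The R141C replicates at day 6 differed 4.23-fold, and the higher one reached almost the level of R141C at day 0. With this spread the fall of 1.97 ± 1.16 in wild type (log2, SE) and of 1.56 ± 1.16 in R141C did not pass the test. Without wild-type replicate 2 at day 0, the wild-type difference was -3.78.

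Khdc3 (A_51_P448127, chr9:72952157-72952216) had the lowest difference of all 25892 genes in wild type, 129-fold, and rank 5 from the lowest in R141C with 83.5-fold. Its levels were 3.48 and 5.58 in wild type and 4.14 and 1.77 in R141C at day 0, and -2.48 and -2.50 in wild type and -2.78 and -4.08 in R141C at day 6. The day 0 replicates differed 4.30-fold in wild type and 5.20-fold in R141C, so that the genotypes overlapped at day 0 and the size of the fall is imprecise. Leaving out 1 array moved the wild-type difference between -8.07 without wild-type replicate 1 at day 0 and -5.96 without replicate 2, and the R141C difference between -7.57 without R141C replicate 2 at day 0 and -5.19 without replicate 1.

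The promoter of Khdc3 is shown as one that belongs to the gene with this lowest difference. RefSeq promoters on GRCm38.p6 (250 bases before to 50 after the start) were found for 6 of the 10 genes, and motifs were searched in both strands of that window. That build differs from the mm9 of the probe positions. The line below gives the 250 bases before the start (chr9:73102148-73102397, plus strand), with CCAAT or its reverse ATTGG in capitals. The matches begin at -210, -180, -12 and -9, counted back from -1 just before the start, and the last 2 overlap:

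Khdc3: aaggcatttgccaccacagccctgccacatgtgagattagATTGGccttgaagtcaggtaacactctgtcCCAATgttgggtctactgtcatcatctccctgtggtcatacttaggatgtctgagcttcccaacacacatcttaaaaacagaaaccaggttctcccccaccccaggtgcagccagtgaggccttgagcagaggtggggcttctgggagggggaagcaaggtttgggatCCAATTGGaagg

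Among 32851 RefSeq promoters of this length, 1.06% held 4 or more such matches and 37.4% held at least 1. The Khdc3 window held no CpG dinucleotide, as did 5.43% of promoters, beside 15 CpG in Ooep, 14 each in L1td1 and Nr0b1, 11 in Tcl1, 3 in Aoah and a median of 7 over all promoters.

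Ooep (A_55_P2012211, chr9:78224804-78224863) had levels of -3.36 and -2.79 in wild type and -3.70 and -4.10 in R141C at day 0, and -4.75 and -4.39 in wild type and -4.23 and -4.47 in R141C at day 6. It was well above background on all 8 arrays. The 2 wild-type day 0 cultures were the highest, both R141C day 0 cultures lay below them, and the 4 day 6 cultures overlapped. The wild-type fall was 2.81-fold (log2 difference -1.49), and the R141C difference of -0.45 ± 0.28 (SE) did not pass. With normexp background correction these differences were -0.76 (adjusted p = 0.0446 in limma) and -0.061. The wild-type call was lost without wild-type replicate 2 at day 0 (adjusted p = 0.0522 in limma), without wild-type replicate 1 at day 6 (0.0818) and without wild-type replicate 2 at day 6 (0.0501).

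Dppa5a (A_55_P2028171, chr9:78214866-78214925) lies 9938 bp from the probe of Ooep. Its levels were 7.52 and 7.72 in wild type and 7.60 and 7.54 in R141C at day 0, and 5.34 and 5.29 in wild type and 6.15 and 5.82 in R141C at day 6. The day 0 genotypes overlapped within 0.20, and at day 6 both R141C cultures were above both wild-type cultures. The fall was 4.95-fold in wild type and 3.01-fold in R141C, and the day 6 cultures kept a level more than 5 doublings above the 75th percentile. Dppa5a has close copies in the mouse genome, and whether the probe reads them too was not tested.

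Of the 8 genes listed for the subcortical maternal complex, 7 were tested, and 5 were called lower in wild type and 3 in R141C, where 12.9% and 8.03% of all genes were. These counts include Khdc3 in both genotypes and Ooep in wild type, which were selected on these arrays. They also include Padi6 and Nlrp4f in both genotypes. These genes were well above background on no day 6 array and passed the filter only through day 0, so nothing is read from the counts. Tle6, a corepressor, did not pass (-0.19 in wild type, adjusted p = 0.711, and 0.057 in R141C, adjusted p = 0.926, in limma). Nlrp5, the egg protein also known as Mater, had differences of -1.88 in wild type (adjusted p = 0.010) and -0.22 in R141C (adjusted p = 0.694). Among 7 markers of oocytes, 4 or 5 were well above background in each culture, while Bmp15 and Oosp1 were so on none of the 8 arrays. The summed signal of the list was 0.94 to 3.25 in all cultures. Of the 5 oocyte markers tested, 1 was called lower in each genotype, beside the same 12.9% and 8.03% of all genes. In the relatives of these genes, Khdc1a had differences of 1.87 in wild type and 2.80 in R141C that did not pass (adjusted p = 0.238 and 0.122 in limma). It was well above background on 0 of 2 wild-type arrays on either day, so no difference is read in wild type. In R141C it was well above background on 1 of 2 arrays at day 0 and 2 of 2 at day 6.

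Tcl1 (A_55_P1960342, chr12:106454973-106455032) had levels of 3.85 and 3.96 in wild type and 3.44 and 1.85 in R141C at day 0, and -1.57 and -1.28 in wild type and -1.98 and -1.34 in R141C at day 6. R141C replicate 2 stood 3.01-fold below its partner at day 0, and the day 6 cultures overlapped. The fall was 40.3-fold in wild type and 19.8-fold in R141C. The promoter of Tcl1 is shown for its pair of GC boxes (GGGCGG or CCGCCC in capitals, beginning at -64 and -54), a motif that 35.7% of promoters held. It is printed along the minus strand, chr12:105222738-105222987 on GRCm38.p6:

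Tcl1: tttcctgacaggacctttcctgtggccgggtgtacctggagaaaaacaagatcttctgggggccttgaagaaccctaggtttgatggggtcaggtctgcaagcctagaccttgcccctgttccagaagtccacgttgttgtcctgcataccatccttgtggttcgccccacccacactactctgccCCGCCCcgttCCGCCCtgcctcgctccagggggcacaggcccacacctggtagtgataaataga

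Genes of the Tcl1 family and Akt kinases were listed beside Tcl1. Akt1 and Akt2, with differences of 0.65 and 0.46 in wild type and 0.17 and 0.32 in R141C, did not pass. Tcl1b2, which was called lower in both genotypes, lies 62015 bp from Tcl1 and had differences of -1.04 in wild type and -0.87 in R141C. Tcl1b1, Tcl1b3 and Tcl1b5 were well above background on no array.

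L1td1 (A_55_P2101526, chr4:98405084-98405143) had levels of 6.84 and 7.02 in wild type and 6.99 and 6.61 in R141C at day 0, and 4.02 and 3.56 in wild type and 4.08 and 3.41 in R141C at day 6. The genotypes overlapped on both days, and the falls were nearly the same, 8.80-fold in wild type and 8.30-fold in R141C. Of the 6 RNA-binding genes listed with it, 2 were called lower in each genotype, where 12.9% of all genes in wild type and 8.03% in R141C were. Igf2bp1, which binds RNAs of growth genes, was one of them (-1.12 in wild type and -1.11 in R141C, adjusted p = 0.019 and 0.027 in limma). Lin28a, which blocks maturation of let-7 and is reported to bind L1td1 in human stem cells, was not (-0.42 and 0.060, adjusted p = 0.259 and 0.893).

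Nr0b1 (A_51_P106455, chrX:83441169-83441228) was spotted 10 times on each array. Averages of those spots were 3.31 and 3.82 in wild type and 2.96 and 2.37 in R141C at day 0, and -2.03 and -1.26 in wild type and -3.32 and -2.66 in R141C at day 6. R141C was below wild type on both days without overlap. The fall was 37.0-fold in wild type and 50.4-fold in R141C. In the 250 bases before its start (chrX:86191525-86191774 on GRCm38.p6, plus strand), shown because it was the 1 promoter of the 6 with TATAAA, that motif stands in capitals at -32, and 13.6% of promoters held it:

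Nr0b1: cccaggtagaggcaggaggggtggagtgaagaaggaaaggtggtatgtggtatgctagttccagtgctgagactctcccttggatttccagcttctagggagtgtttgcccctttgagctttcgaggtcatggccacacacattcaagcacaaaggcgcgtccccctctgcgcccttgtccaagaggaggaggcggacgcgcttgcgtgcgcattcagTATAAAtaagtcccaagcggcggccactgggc

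None of the 6 promoters held the octamer ATGCAAAT, the site TCAAGGTCA of the receptors Esrrb and Nr5a2, or the Klf-type letters GGGTGTGG, which 1.74%, 0.423% and 3.56% of all promoters held. Of the 8 genes listed as partners of Nr0b1, 7 were tested. In each genotype 4 were called lower, where 12.9% of all genes in wild type and 8.03% in R141C were. Nanog fell in both (-3.05 in wild type and -2.39 in R141C), as did Esrrb (-4.90 and -3.32). Stat3, which carries the LIF signal, had differences of -0.78 and 0.12 that did not pass (adjusted p = 0.209 and 0.870 in limma).

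Aoah was read by 2 probes that lie 184 kb apart and gave different readings. The brighter one (A_55_P2042988, chr13:21116062-21116121) had levels of 0.71 and 0.05 in wild type and -0.15 and -1.08 in R141C at day 0, and -4.94 and -6.15 in wild type and -7.66 and -6.38 in R141C at day 6. At day 6 only wild-type replicate 1 gave a signal well above background. The fall was therefore at least 30.3-fold in R141C, taken against the lowest signal among probes well above background on the day 6 arrays, and no fold is given in wild type, where 1 of the 2 day 6 arrays measured it. With normexp background correction the log2 differences were -4.12 in wild type and -3.37 in R141C, and the latter is smaller than the bound. The other probe, which covers 60 bases across 10976 bp and so crosses a splice junction, was well above background on none of the 8 arrays, with levels of -8.64 to -7.08:

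Aoah A_66_P133148: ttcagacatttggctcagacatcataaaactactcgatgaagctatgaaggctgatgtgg

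Aoah at day 0 was thus detected by 1 of its 2 probes, and which transcript the brighter probe reads was not tested. The summed signal of 10 myeloid markers was 8.28 to 12.2 in all cultures, with similar sums in the day 0 and day 6 cultures. Of these 10 markers, 6 to 8 were well above background in each culture, while Spi1 and Lyz2 were so on no array. Among the 8 myeloid markers tested, 1 was called higher at day 6 in each genotype and none lower. Of all 25892 genes tested, 2860 in wild type and 1968 in R141C were called higher. Of the 7 listed genes of the response to lipopolysaccharide, Aoah included, 1 was called higher and 1 was called lower in each genotype. The lower one was Aoah, which was selected on these arrays and passed the filter only through its day 0 groups. Of all genes, 24% in wild type and 15.6% in R141C were called in either direction. Myd88, the adaptor of Toll-like receptors, had differences of -0.63 and -0.64 that did not pass (adjusted p = 0.145 and 0.173 in limma).

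**Figure D3:**
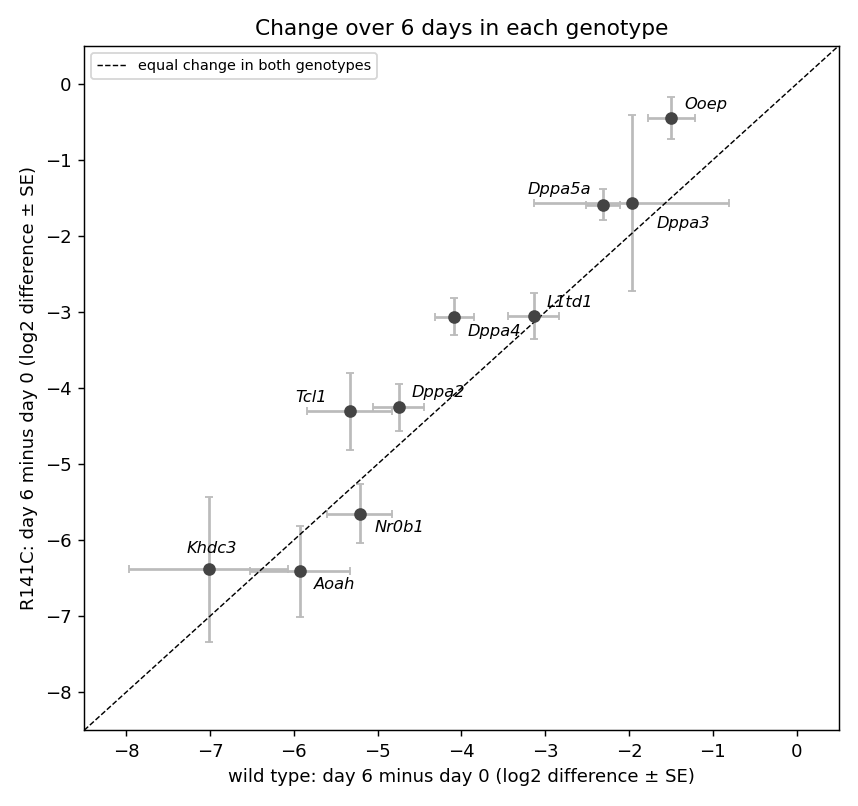
Day 6 minus day 0 difference (log2, with SE bars from limma) of the 10 genes in wild type on the horizontal axis and in R141C on the vertical axis, with a dashed line of equal change. Points above the line, 8 of 10, had the smaller fall in R141C. Nr0b1 and Aoah lie below it, and no distance from the line passed the test. The place of Aoah is not read, since at day 6 it was well above background on 1 wild-type array and no R141C array.

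The difference of the change between genotypes was tested as an interaction. None of the 10 genes passed in limma, nor did any of the 25892 genes (0% called), and the smallest adjusted p among the 10 was 0.821. At an unadjusted p under 0.05 there were 3 of the 10, Dppa4, Dppa5a and Ooep, beside 5.64% of all genes, and the alternative limma settings called none of the 10 either. The fall was smaller in R141C for 8 of 10 genes, with a median of 0.56 beside 0.085 for all genes, of which 42% had a value below 0. Aoah, with an interaction of -0.48, was not among the 8, and with normexp background correction its interaction was 0.75. At day 6 Aoah was well above background on 1 wild-type array and no R141C array, so its interaction is not read. Dppa4 had the smallest p, with an interaction of 1.02 ± 0.34 (log2, SE, adjusted p = 0.821). Ooep (1.04 ± 0.40) and Tcl1 (1.03 ± 0.71) had like sizes. The median was 0.10 without R141C replicate 1 at day 6, 0.26 without R141C replicate 2 at day 0 and 0.92 without R141C replicate 2 at day 6, so that single arrays moved it by over 1.5 times.

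At day 0, before differentiation, none of the 10 genes passed between the genotypes in limma (adjusted p = 0.9995 for each, with 0% of all genes called). Tcl1 and Ooep had an unadjusted p under 0.05, 2 of 10 beside 4.5% of all genes, and no alternative limma setting called any. The level was lower in R141C for 9 of 10 genes, where 49.4% of all genes were lower, and the median difference was -0.76 beside 0.0046 for all genes. For 6 genes (Dppa2, Dppa4, Ooep, Tcl1, Nr0b1 and Aoah) both R141C cultures were below both wild-type cultures, where 14.3% of all genes had this arrangement. The genes were chosen with these levels known, so nothing is read from these counts. Differences ranged from -1.57 ± 0.95 for Khdc3 (log2, SE) to 1.37 ± 1.16 for Dppa3. Tcl1 had -1.26 ± 0.51, Nr0b1 -0.90 ± 0.39, Ooep -0.82 ± 0.28 and Dppa2 -0.70 ± 0.31.

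R141C replicate 2 decided much of the size of these day 0 values. It was below R141C replicate 1 for 9 of the 10 genes, as it was for 64.3% of all genes, and without it the median difference was -0.43. Tcl1 then differed by -0.47 instead of -1.26, Khdc3 by -0.38 instead of -1.57, and Aoah by -0.53 instead of -0.99. Dppa3 turned from 1.37 to -0.44 when wild-type replicate 2 was left out. In the same R141C replicate 2 the summed signal of 6 stem cell markers was the lowest of the day 0 cultures (213), that of 9 fibroblast markers the highest (51.5, against 11.9 to 33.4) and that of 7 cardiac markers the highest (34.5, against 4.75 to 13.8). Of the stem cell markers, Sox2, Nanog, Zfp42, Esrrb and Utf1 were each lowest in this culture. Pou5f1 was not, with a level of 5.55 against 4.99 in wild-type replicate 2. Of the cardiac markers 6 of 7, and of the fibroblast markers 9 of 9, were well above background in R141C replicate 2, and in the other day 0 cultures 7 of 7 and 8 or 9 of 9. The part of these values in the differences was not tested.

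**Figure D4:**
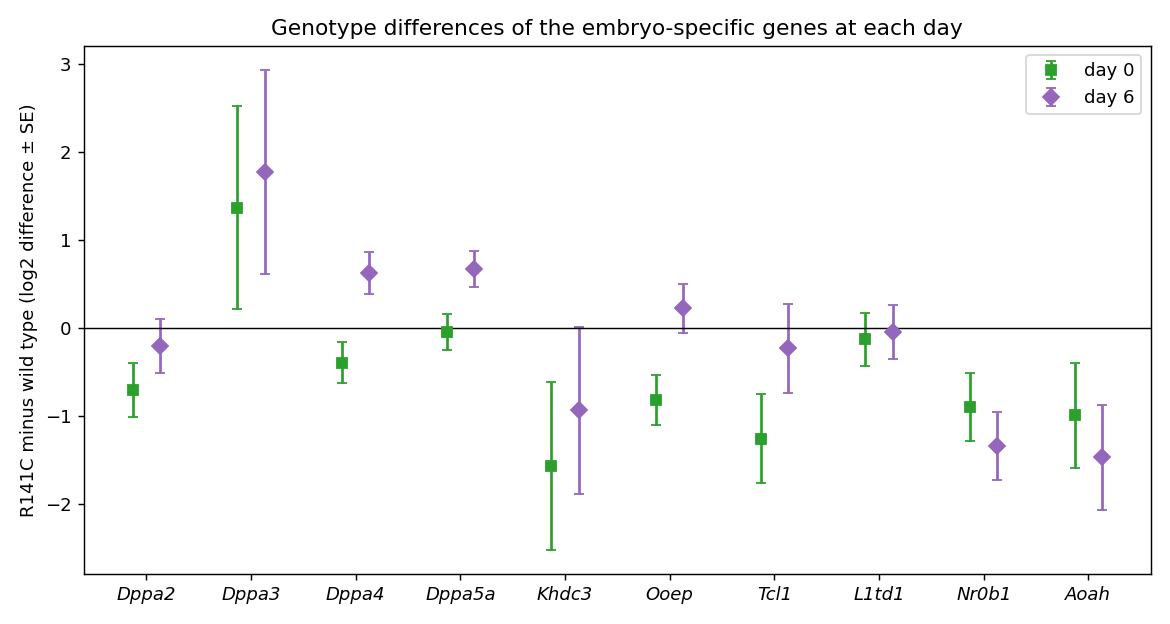
R141C minus wild type (log2 difference, with SE bars from limma) of the 10 genes at day 0 (squares) and day 6 (diamonds). At day 0 all but Dppa3 lie below 0, and at day 6 Dppa3, Dppa4, Dppa5a and Ooep lie above it; no difference passed the test on either day.

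At day 6 none of the 10 genes passed between the genotypes either, where 0.0657% of all genes were called, and the smallest adjusted p was 0.421. Dppa4, Dppa5a, Nr0b1 and Aoah had an unadjusted p under 0.05, 4 of 10 beside 8.53% of all genes, and the alternative limma settings called none. The genes did not move one way, with 6 lower (where 41.9% of all genes were) and 4 higher in R141C, and a median of -0.13 beside 0.071 for all genes, and the median was 0.27 without R141C replicate 2 at day 6. Groups did not overlap for 3 genes that were higher (Dppa3, Dppa4 and Dppa5a, beside 27.8% of all genes) and 3 that were lower (Khdc3, Nr0b1 and Aoah, beside 16.5%). Dppa3 was higher by 1.78 ± 1.16 (log2, SE), Dppa5a by 0.67 ± 0.20 and Dppa4 by 0.63 ± 0.24 in R141C. Nr0b1 had a difference of -1.34 ± 0.39, with the smallest p of the 10. Aoah, counted above among the 4 with an unadjusted p under 0.05 and among the 3 lower genes, was well above background on 1 of the 4 day 6 arrays, so no difference is read from it.

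Markers of other cells had unequal sums at day 6 as well. The summed signal of 7 cardiac markers was 227 and 280 in wild type and 13.3 and 86.0 in R141C, and that of 9 germ cell markers was 14.1 and 13.1 in wild type and 32.1 and 17.1 in R141C. The R141C replicate 1 with the higher Dppa3 (2.06), Dppa4 (0.05) and Dppa5a (6.15) was the culture with the lowest cardiac and the highest germ cell sum of day 6. Stem cell markers were 33.2 and 23.2 in wild type and 39.1 and 32.6 in R141C. The part of these markers in the values of the 10 genes was not tested.

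Other genes of naive stem cells were listed beside the 10. None of 13 naive pluripotency factors passed between genotypes or in the interaction (smallest adjusted p = 0.580 at day 6 and 0.810 for the interaction in limma). At day 0, 12 of 13 were lower in R141C (median -0.65), where 49.4% of all genes were lower. At day 6, 12 of 13 were higher in R141C (median 0.49) and 1 was lower, where 41.9% of all genes were lower. Over the 6 days 10 were called lower in wild type, and 9 lower and 1 higher in R141C, where 12.9% and 8.03% of all genes were called lower. Pou5f1 (-2.39 and -2.23) and Klf2 (-2.38 and -2.18) fell in wild type and R141C. Of 12 further transcripts typical of stem cells 11 were called lower in each genotype, beside the same 12.9% and 8.03% of all genes. Among them were Utf1 (-4.12 and -3.36) and Tdh, a threonine dehydrogenase of mouse stem cells (-3.88 and -3.15). These lists share Nanog, Esrrb and other genes with those above and are not separate evidence.

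The genes varied in different ways among the 4 cultures of day 0. The range from the lowest to the highest of these cultures was 3.81 for Khdc3 and 3.62 for Dppa3, larger than the range of 99.3% of all genes tested, and 2.11 for Tcl1, larger than that of 95.2%. It was 0.20 for Dppa5a, larger than that of 5.66%, 0.41 for L1td1 and 0.56 for Dppa4. The median range was 1.38 for the 10 genes and 0.61 for all genes. Khdc3 and Dppa3 did not vary together. Khdc3 was highest in wild-type replicate 2, the culture in which Dppa3 was lowest.

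Genes reported to depend on Dppa2 and Dppa4 had unequal spreads at day 0. Of 11 such genes 9 were on the array by name, and all 9 were tested. Zscan4f, of a family of 2-cell embryo genes, had levels of 4.98 and 0.15 in wild type and 0.94 and 3.24 in R141C at day 0, and -0.85 and -1.47 in wild type and -3.57 and -5.17 in R141C at day 6. Zscan4c read 3.26 and -1.33 in wild type and -0.75 and 1.18 in R141C at day 0, and Gm4340 read 4.73 and -0.32, then 0.69 and 2.92. Wild-type replicate 1 was the highest and wild-type replicate 2 the lowest in these 3 genes and in Tcstv1, Tcstv3 and Usp17lb, while Dppa2 and Dppa4 of the same 2 cultures differed 1.14-fold and 1.08-fold. The range over the day 0 cultures was 4.59 to 5.71 in these 6 genes, 0.60 in Zfp352, 0.49 in Usp17la and 1.22 in Prr23a1. These families have many near-identical copies, so the reading of a single member is uncertain. Over the 6 days, 1 of the 9 was called lower in wild type and 2 in R141C, where 12.9% and 8.03% of all genes were. Prr23a1, called in both genotypes, was well above background on no day 6 array and passed the filter only through day 0. None of the 9 was called between the genotypes.

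**Figure D5:**
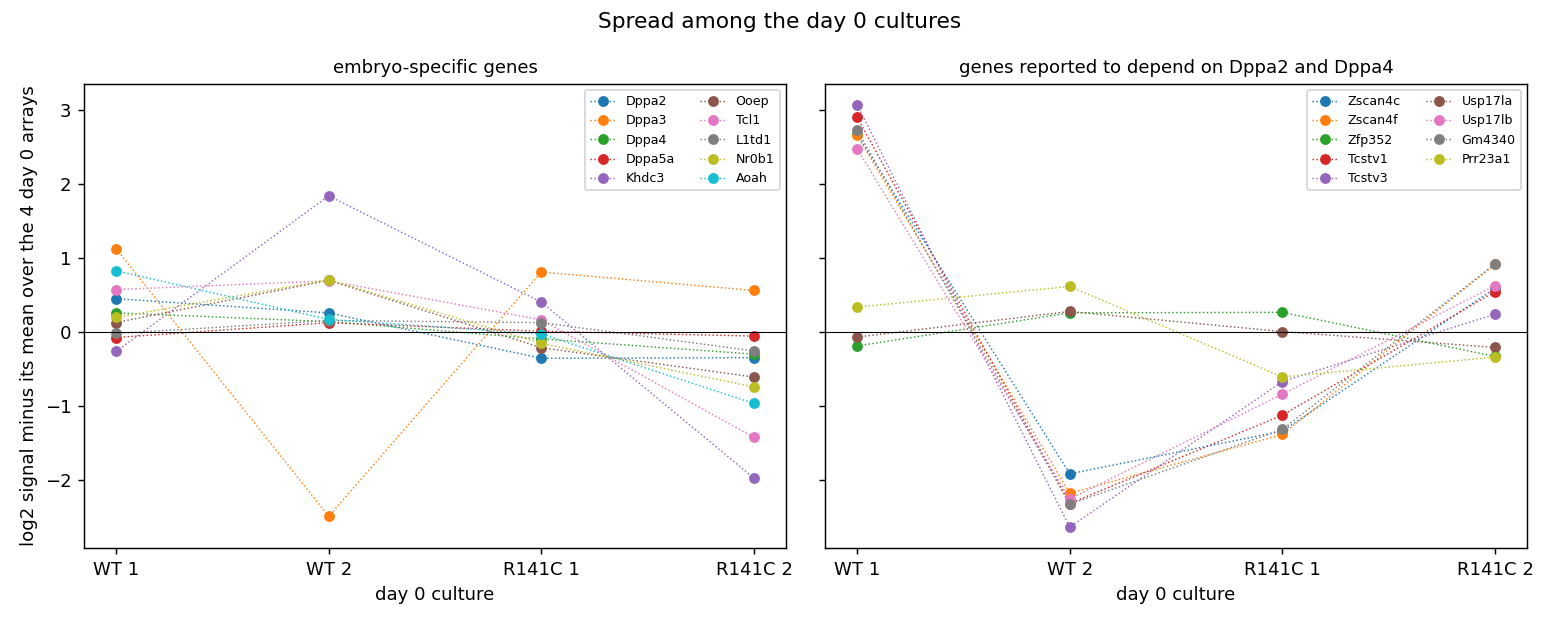
Log2 signal of each gene in the 4 day 0 cultures minus its mean over those cultures, for the 10 genes (left) and for 9 genes reported to depend on Dppa2 and Dppa4 (right), with dotted lines joining the points of a gene. On the right, 6 genes are highest in wild-type replicate 1 and lowest in wild-type replicate 2; on the left, Dppa3 has its lowest point there and Khdc3 its highest.

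Among partners of Dppa3 in DNA methylation, none of the 8 listed genes passed between genotypes (smallest adjusted p = 0.670 at day 6 and 0.917 for the interaction in limma). Over the 6 days 1 was called higher and 2 lower in each genotype. Of all genes, 24% in wild type and 15.6% in R141C were called in either direction. Dnmt3a, a methylase that sets new methylation, rose (1.75 in wild type and 1.70 in R141C, adjusted p = 0.012 and 0.020 in limma). Dnmt3l, the cofactor of new methylation, fell (-4.61 in wild type and -3.84 in R141C), and so did Tet1, which oxidises methylated cytosine (-2.42 and -2.09). Uhrf1, which recruits the maintenance methylase and is bound by Dppa3 in the mouse, did not pass (-0.052 and 0.15, adjusted p = 0.903 and 0.736), and neither did Dnmt3b (-0.062 and -0.28, adjusted p = 0.900 and 0.564).

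The genes most like the mean pattern of the 10 were found by Pearson's r over the 8 arrays, after each of the 10 was put on a common scale. They were Zfp850 (r = 0.998), an unannotated probe NAP092468-001 (0.998), Zfp42, the stem cell factor also known as Rex1 (0.998), a noncoding interval on chromosome 4 (0.998) and Il34, a ligand of the Csf1 receptor (0.997). This likeness rests on the gap between the days that all of them share. Pairs of the 10 genes had r of 0.25 to 0.99 over the 8 arrays (median 0.94 over 45 pairs), and -0.64 to 0.92 (median 0.10) after the group means were taken away, when the 8 values are 4 mirrored pairs. Dppa4 with L1td1 (0.92), Khdc3 with Ooep (0.87) and Dppa2 with Dppa4 (0.85) were high in that measure, and Dppa2 with Nr0b1 was lowest. The genes whose deviations from group means were most like the mean deviations of the 10 were Mfsd13a, Cnnm1, NAP106421-1, Pramel13 and AK140103, each with r of 0.998 or 0.999. With 4 mirrored pairs and 25892 genes tested, the best genes reach such an r readily, so nothing is read from it. For Dppa3 alone, looked up after its values were seen, the most similar pattern was that of Ccno, a cyclin-like gene of multiciliated cells (r = 0.994), with levels of 3.17 and 0.0060 in wild type and 2.61 and 2.33 in R141C at day 0.

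Neighbours of the 10 genes within 100 kb, by probe position on mm9, were looked up after the data had been seen. Of 27 tested neighbours that are not among the 10, 14 were called lower in wild type over the 6 days, where 12.9% of all genes were, 1 was called higher, and 7 were called lower in R141C, where 8.03% of all genes were. Dppa3 lies beside Gdf3, a growth factor of stem cells (-5.48 in wild type and -4.58 in R141C), Apobec1 and Nanog (-3.05 and -2.39), and these 3 fell in both genotypes while Dppa3 itself did not pass. Around Dppa5a and Ooep, Ddx43 (-2.89 and -1.76) and Mto1 (-1.31 and -0.98) fell in both genotypes. Khdc3, with the lowest difference of all genes in wild type, had 7 neighbours with a median of 0.12, of which 2 were called lower in wild type and none in R141C. None of the neighbours was called between the genotypes at either day.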

How the data were processed

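RNA of the 8 cultures was hybridized to single-colour Agilent arrays. The deposited scanner files name Agilent Feature Extraction 11.5.1.1 in their headers, while the submitters' processing notes give 10.5.1.1. The processed signal in them is an intensity from which the software subtracted the background, and the authors deposited it without normalization between arrays. Flags per spot (other), such as well above background, are deposited as 0 or 1. A deposited matrix with log2 values for 36388 probes served only as an alternative. It follows log2 of the processed signal (r of 0.9995 to 0.9999 per array, column medians of 8.99 to 9.04), and its filter and normalization are not given in the sources used here.

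Control spots and outlier spots (131 to 251 per array) were left out, spots of a probe were averaged, and log2 signals were shifted to put each array's 75th percentile at 0. For each gene the brightest probe on average was used. The filter on dim probes asked that it be well above background in both replicates of 1 or more groups (25892 of 34736 genes, 74.5%). Differences come from limma 3.58.1 in R 4.3.3, with 4 group means fitted to the 8 arrays (4 residual degrees of freedom), two-sided, and Benjamini-Hochberg adjustment over all tested genes within each of 5 comparisons at a threshold of 0.05. The fit was tested on simulated data. The number of arrays limits the precision, and p-values measure the spread between the 2 replicates of each group.

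The 10 genes and all gene lists were chosen with earlier results of these data known. Beside the 10, the rule for naming genes took those of each list that passed between genotypes and otherwise up to 4 with the highest mean signal, and the 5 genes most like the 10 by each measure. Tcl1b1, Tcl1b2, Tcl1b3, Tcl1b5, Tcstv1, Tcstv3, Usp17la, Usp17lb, Prr23a1, Ccno, Dnmt3a, the neighbours and single markers of other cell types were named after their values were seen. Settings tried in place of these were quantile normalization; a shift to a common median; normexp background correction (offset 50); the deposited matrix; no filter, or one on every array; trended, robust eBayes; fits of the compared arrays alone; averaging the probes of a gene; replicate numbers as a block; and omission of each array. A crossed replicate block at day 0 was added after the data were seen. Results of 2 genes that were looked up are not reported here. Promoters are from RefSeq (GRCm38.p6). Python 3.11.15 with matplotlib 3.10.9 drew the figures.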

Additional observations from a re-analysis of the deposited data

How the results depend on the processing

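Under the alternatives, the number of the 10 genes called stayed at 0 between genotypes and in the interaction, at 8 or 9 in wild type and at 7 or 8 in R141C over the 6 days (8 and 7 with the filter on all 8 arrays, which left out Aoah). The median fall in wild type was -4.03 with normexp, -4.08 with the filter on all 8 arrays (9 genes) and -3.39 with the mean of each gene's probes, and in R141C it was -3.21, -3.06 and -3.01. With 1 array left out in turn, the median of the 10 genes ranged from -0.86 to -0.43 at day 0, from -0.17 to 0.27 at day 6, from -4.51 to -4.32 in wild type, from -3.75 to -3.23 in R141C and from 0.10 to 0.92 for the interaction. The day 6 median was 0.073 with the mean of the probes. For single genes, none of them called, the sign turned for the interaction of L1td1 with a median shift (-0.018), that of Aoah with normexp (0.75) and Dppa2 at day 6 with the mean of its probes (0.19).

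Leaving out 1 array also turned signs. The day 0 difference then ranged from -0.44 (without wild-type replicate 2 at day 0) to 3.18 for Dppa3, from -0.15 to 0.052 for Dppa5a and from -0.32 to 0.059 for L1td1. At day 6 it ranged from -0.67 to 0.25 for Dppa2, from -0.56 to 0.086 for Tcl1 and from -0.39 to 0.29 for L1td1. The interaction ranged from -1.40 to 2.22 for Dppa3, from -0.56 to 1.82 for Khdc3, from -0.25 to 0.42 for L1td1 and from -1.12 to 0.16 for Aoah. Without wild-type replicate 2 at day 0, Dppa3 passed in wild type over the 6 days (-3.78, adjusted p = 0.0325 in limma). The cause of these changes was not tested.

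With replicate numbers as a block, and with the crossed pairing at day 0 (added after the data were seen, since the deviations of the day 0 groups correlated at -0.14), the called genes among the 10 numbered 9 in wild type, 8 in R141C and 0 elsewhere. Deviations of other same-numbered groups correlated between -0.062 and 0.34, so the numbers are not taken as pairs. Signals near background limit Aoah at day 6, and Ooep, though well above background, was also dim. The day 6 levels of Ooep were -4.75 to -4.23. On those arrays the lowest levels among probes well above background were -5.69 to -4.97. With normexp background correction the interaction of Ooep was 0.70 instead of 1.04.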
